A study of Homo sapiens with 12 samples.

Results

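The account covers 10 genes of the cytosolic HSP70 and HSP90 chaperone machinery in 2 retinoblastoma cell lines exposed to THZ1. The 10 are HSPA8, HSPA1A, HSPA1B, HSPA4, HSPH1, HSP90AA1, HSP90AB1, HSF1, BAG3 and TTC4, taken from a count table of 27505 features, of which 19974 are Ensembl genes. They were chosen by symbol around HSPA8 and TTC4, which were themselves selected on their much lower mRNA after THZ1 in these same data, so the THZ1 differences of the 10 are given as descriptions without a test.

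RNA sequencing was done on WERI-Rb-1 (WERI) and Y79, established human lines grown from retinoblastoma and labelled wild type. THZ1 is a covalent inhibitor of the transcription kinase CDK7 that also reacts with CDK12 and CDK13. The 4 groups were WERI with 50 nM THZ1, WERI with 0.1% DMSO, Y79 with 50 nM THZ1 and Y79 with 0.1% DMSO, each for 12 h in serum-containing RPMI medium, with 3 cultures per group and 12 libraries in all. DMSO is the solvent of the drug, and each line stands for 1 tumour. All 10 markers of the photoreceptor and retinoblastoma lineage that were checked, CRX and OTX2 among them, averaged at least 1 CPM in every group.

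HSP70 proteins bind exposed stretches of unfolded polypeptide and release them in a cycle of ATP binding and hydrolysis, while HSP90 dimers take over partly folded clients such as kinases and hormone receptors. HSPA8 (also called HSC70) is the HSP70 of unstressed cells, and HSPA1A and HSPA1B encode the stress-inducible HSP70. Under protein stress the factor HSF1 is freed from chaperones, trimerises and binds heat shock elements, repeats of the unit NGAAN in alternating orientation, in the promoters of chaperone genes.

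Shown first are the promoters of HSPA8, TTC4 and both cytosolic HSP90 genes, and that of HSPA1A as an inducible HSP70. HSPA8 and each HSP90 gene have 1 promoter entry that holds a heat shock element of 3 units. The mRNA of HSPA8 and of the HSP90 genes differed in opposite directions under the TMM scaling used here (all 3 were lower when scaled to mitochondrial mRNA). RefSeq promoters on GRCh38.p14, running from 250 bases before to 50 bases after the start, were found for 9 of the 10 genes, HSF1 being the one without an entry. The 9 genes have 12 entries, since HSP90AA1 has 2 and HSP90AB1 has 3, and for each of these the 1 entry that holds an element of 3 units is printed. Capitals mark heat shock elements of 3 units (GAANNTTCNNGAA or its reverse complement TTCNNGAANNTTC), elements of 2 units (GAANNTTC or TTCNNGAA, which also lie within the longer ones) and the TATA box TATAAA, each searched on both strands. Only exact matches were counted, so elements with imperfect or gapped units are not marked. HSPA8 lies at chr11:123062087-123062386 on the minus strand, HSP90AA1 at chr14:102086995-102087294 on the minus strand and HSP90AB1 at chr6:44247693-44247992 on the plus strand. HSPA1A lies at chr6:31815293-31815592 and TTC4 at chr1:54715611-54715910, both on the plus strand.
HSPA8: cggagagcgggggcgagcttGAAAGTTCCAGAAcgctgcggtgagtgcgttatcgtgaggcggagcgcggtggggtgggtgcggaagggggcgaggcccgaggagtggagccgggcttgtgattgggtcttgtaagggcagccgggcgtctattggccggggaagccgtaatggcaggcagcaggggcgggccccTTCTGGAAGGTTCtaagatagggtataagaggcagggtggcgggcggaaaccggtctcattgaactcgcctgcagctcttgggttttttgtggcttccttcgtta
HSP90AA1: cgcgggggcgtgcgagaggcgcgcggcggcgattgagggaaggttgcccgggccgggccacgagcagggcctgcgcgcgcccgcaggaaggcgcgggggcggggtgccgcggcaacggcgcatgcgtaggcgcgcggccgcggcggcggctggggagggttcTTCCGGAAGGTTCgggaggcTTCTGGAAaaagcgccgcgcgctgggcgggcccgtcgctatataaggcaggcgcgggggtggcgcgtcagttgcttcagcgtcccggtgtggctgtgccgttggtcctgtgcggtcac
HSP90AB1: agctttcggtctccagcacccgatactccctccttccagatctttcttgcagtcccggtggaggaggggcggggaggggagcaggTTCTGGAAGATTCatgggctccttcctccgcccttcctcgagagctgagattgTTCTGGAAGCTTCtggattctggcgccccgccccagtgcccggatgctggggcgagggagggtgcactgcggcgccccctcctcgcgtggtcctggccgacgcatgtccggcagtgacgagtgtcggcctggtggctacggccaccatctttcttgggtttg
HSPA1A: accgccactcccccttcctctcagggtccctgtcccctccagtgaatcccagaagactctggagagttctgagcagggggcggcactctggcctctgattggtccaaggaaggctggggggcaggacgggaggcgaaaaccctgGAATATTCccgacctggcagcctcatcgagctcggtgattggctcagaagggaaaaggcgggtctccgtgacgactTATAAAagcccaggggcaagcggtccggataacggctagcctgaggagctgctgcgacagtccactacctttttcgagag
TTC4: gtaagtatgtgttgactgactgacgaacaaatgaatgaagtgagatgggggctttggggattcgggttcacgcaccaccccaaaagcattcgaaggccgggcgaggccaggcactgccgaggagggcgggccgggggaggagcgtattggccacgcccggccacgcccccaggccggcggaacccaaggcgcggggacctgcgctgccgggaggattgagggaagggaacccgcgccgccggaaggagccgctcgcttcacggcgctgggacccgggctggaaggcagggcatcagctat
The element of 3 units began at -230 and -55 in HSPA8, at -88 in HSP90AA1 and at -165 and -112 in HSP90AB1, counted from the start. It was in 3 of the 12 entries, 1 for each of these genes, and in 0.490% of all 35116 RefSeq promoters. The other entries of HSP90AA1 and HSP90AB1 held no exact match to an element of 3 or 2 units. The printed entries of HSPA8, HSP90AA1 and HSP90AB1 lie inside the annotated spans of their genes, after the outermost annotated start. An element of 2 units was present in 5 of the 12 entries, the 3 above with those of HSPA1A and HSPA1B, against 13.5% of all promoters. TATAAA stood at -30 in HSPA1A and at -29 in HSPA1B, and 11.5% of all promoters held it. The TTC4 promoter held none of these, and the letters say nothing about whether a factor was bound.

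Levels are given as counts-per-million (CPM) with TMM scaling, a scaling that takes most genes as unchanged. Libraries held from 29677575 to 37433574 counts. The share of counts from the 13 mitochondrially encoded mRNAs, which another polymerase makes, ranged from 8.44% to 11.2% in THZ1 libraries and from 3.74% to 4.46% in DMSO libraries. Y79 THZ1 replicate 2 stood apart with a TMM factor of 0.696, against 0.790 and 0.801 in the other Y79 THZ1 libraries. Summed CPM of 10 markers of other cell types was 57.0 to 58.2 in WERI THZ1, 25.9 to 30.2 in WERI DMSO, 9.64 to 11.8 in Y79 THZ1 and 7.03 to 8.30 in Y79 DMSO, with COL1A1 making most of it in WERI and TYR at 0 throughout. The part of these shifts in the results was not tested. All 10 genes passed the filter on low counts, TTC4 and BAG3 with few counts in THZ1 libraries.

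HSPA8 mRNA was 7.03-fold lower in WERI THZ1 than in WERI DMSO cultures and 13.6-fold lower in Y79 THZ1 than in Y79 DMSO cultures. The gene (ENSG00000109971) spans chr11:123057489-123063230 on the minus strand of GRCh38, its main coding transcript has 9 exons, and its introns host the small nucleolar RNAs SNORD14C, SNORD14D and SNORD14E. WERI THZ1 libraries had 183, 178 and 191 CPM, against 1281, 1338 and 1262 CPM in WERI DMSO. Y79 THZ1 libraries had 120, 155 and 126 CPM, against 1840, 1857 and 1777 CPM in Y79 DMSO. The 4 groups did not overlap, in the order Y79 DMSO, WERI DMSO, WERI THZ1 and Y79 THZ1 (highest first). In these bulk libraries, fewer HSPA8-expressing cells and less HSPA8 mRNA per cell cannot be told apart.

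The log2 fold change of HSPA8 was -2.81 ± 0.095 (SE, n = 3 per group) in WERI and -3.77 ± 0.0992 in Y79. Among 14865 tested Ensembl genes, 110 had a more negative value in WERI and 100 in Y79. By CPM per kilobase of each gene's exon union (all annotated exons merged), HSPA8 ranked 988 of 14865 genes in WERI THZ1 and 39 in WERI DMSO, and 1410 in Y79 THZ1 and 40 in Y79 DMSO. The deposited counts themselves were 5233 to 5529 in WERI THZ1 and 54595 to 58023 in WERI DMSO libraries, and 3041 to 3325 in Y79 THZ1 and 73833 to 77404 in Y79 DMSO libraries.

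TTC4 encodes a co-chaperone with tetratricopeptide repeats that binds HSP90 and HSP70, the human counterpart of yeast Cns1. Its mRNA was 7.43-fold lower in WERI THZ1 than in WERI DMSO and 15.8-fold lower in Y79 THZ1 than in Y79 DMSO. WERI THZ1 libraries had 3.32, 2.00 and 3.14 CPM, against 22.0, 21.0 and 20.0 CPM in WERI DMSO. Y79 THZ1 libraries had 2.71, 1.94 and 0.998 CPM, against 30.3, 30.6 and 29.4 CPM in Y79 DMSO. THZ1 and DMSO libraries did not overlap in either line, while the THZ1 libraries of the lines overlapped each other.

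The log2 fold change of TTC4 was -2.89 ± 0.237 in WERI and -3.99 ± 0.254 in Y79, with 98 and 83 genes more negative. The THZ1 values rest on 59 to 95 counts in WERI and 24 to 75 counts in Y79, against 862 to 936 counts in WERI DMSO and 1219 to 1276 counts in Y79 DMSO. TTC4 (ENSG00000243725, chr1:54715822-54742657, plus strand, 10 exons) shares 76.2% of its 100-base windows with the readthrough gene MROH7-TTC4, so reads could have been split between them. MROH7-TTC4 had 0 to 63 counts per library, and with both summed the log2 fold change was -2.66 in WERI and -3.55 in Y79.

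**Figure D1:**
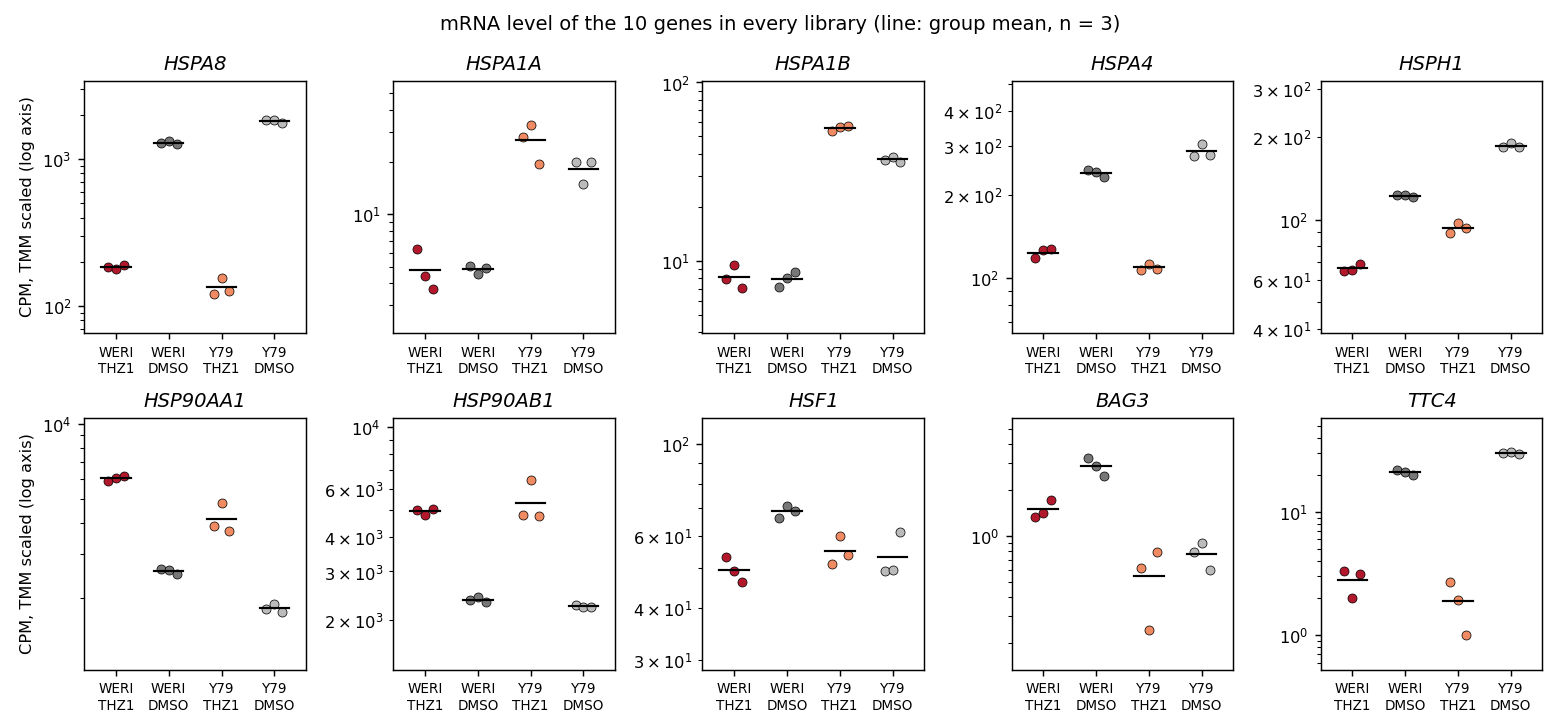
CPM (log axis, TMM scaled) of each of the 10 genes in every library, as points by group with a line at the mean of 3 cultures. HSPA8 and TTC4 sit lowest in the THZ1 groups of both lines (HSPA8 at 184 and 134 CPM on average), HSP90AA1 and HSP90AB1 sit highest there (a direction that turned when libraries were scaled to mitochondrial mRNA), and HSPA1A and HSPA1B separate the lines more than the treatments.

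Annotated neighbours of both genes were also measured, and none of them had been used to choose the 10. PARS2, a mitochondrial prolyl-tRNA synthetase gene 14241 bases from TTC4, fell in both lines by edgeR's quasi-likelihood test, to 1.29 CPM in WERI THZ1 against 8.77 CPM in WERI DMSO (log2 fold change -2.76 ± 0.256, adjusted p = 4.55e-07) and to 0.441 CPM in Y79 THZ1 against 4.56 CPM in Y79 DMSO (-3.38 ± 0.294, adjusted p = 1.79e-07). MROH7, 5556 bases away on the other side, had a log2 fold change of 0.54 ± 0.671 in WERI (adjusted p = 0.515). In Y79 it rose under TMM (1.85 ± 0.694, adjusted p = 0.0313), at 4 to 66 counts per THZ1 library and 7 to 32 per DMSO library. MROH7 overlaps the readthrough gene MROH7-TTC4, so reads could have been split here too. Y79 replicate 2 had 4 counts of MROH7 in THZ1 and 7 in DMSO, beside 31 and 33 counts of MROH7-TTC4. Next to HSPA8, CLMP lies 6635 bases away and fell in WERI (-1.85 ± 0.444, adjusted p = 0.00238), with 0.02 ± 0.498 in Y79 (adjusted p = 0.993) at 2 to 18 counts in THZ1 and 14 to 28 counts in DMSO libraries. JHY, 97691 bases from HSPA8, fell in WERI (-1.02 ± 0.265, adjusted p = 0.00739) and had no counts in Y79.

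HSPA1A and HSPA1B, the inducible HSP70 genes, had about the same level in WERI THZ1 as in WERI DMSO and a higher mean in Y79 THZ1 than in Y79 DMSO under TMM scaling. Each has 1 exon, and they lie near each other at chr6:31815464-31817946 and chr6:31827735-31830255 on the plus strand. HSPA1A shares 69.9% of its 100-base windows with other genes and HSPA1B 72.7%, mostly with each other, and the sources used here do not say how the authors assigned such reads. The sum of both genes is therefore given as well. It would be the firmer value if shared reads were split between the genes, but not if they were dropped or counted more than once. Summed CPM was 14.2, 13.9 and 10.7 in WERI THZ1, against 12.2, 12.5 and 13.6 in WERI DMSO.

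In Y79 THZ1 the sum was 81.3, 88.9 and 76.9 CPM, against 56.8, 53.4 and 56.0 CPM in Y79 DMSO. The WERI groups overlapped and the Y79 groups did not. HSPA1B alone had 53.3, 56.0 and 57.3 CPM in Y79 THZ1, against 36.8, 38.5 and 36.0 CPM in Y79 DMSO. The log2 fold change of the sum was 0.02 in WERI and 0.57 in Y79. Its direction in Y79 rests on the scaling, since by library size alone HSPA1A had -0.03 and HSPA1B 0.02, and scaled to mitochondrial mRNA they had -1.15 and -1.13. The like level in WERI rests on the scaling too. There HSPA1A had -0.45 and HSPA1B -0.41 by library size alone, and -1.90 and -1.85 scaled to mitochondrial mRNA.

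HSPA4 and HSPH1 encode HSP110-type chaperones, which act as nucleotide exchange factors for HSP70. HSPA4 averaged 124 ± 4.91 CPM in WERI THZ1 and 239 ± 6.995 CPM in WERI DMSO, and 109 ± 2.81 CPM in Y79 THZ1 and 286 ± 15.4 CPM in Y79 DMSO (SD, n = 3 each). HSPH1 averaged 66.5 ± 2.02 CPM in WERI THZ1 and 122 ± 1.08 CPM in WERI DMSO, and 93.3 ± 3.67 CPM in Y79 THZ1 and 186 ± 3.44 CPM in Y79 DMSO. No THZ1 library of either gene reached a DMSO library of its line. The log2 fold changes were -0.95 ± 0.0638 in WERI and -1.38 ± 0.0646 in Y79 for HSPA4, and -0.88 ± 0.0577 in WERI and -0.995 ± 0.0576 in Y79 for HSPH1.

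HSP90AA1 and HSP90AB1, the 2 cytosolic HSP90 genes, had higher CPM in THZ1 than in DMSO cultures under TMM scaling, a direction that turned when libraries were scaled to mitochondrial mRNA. HSP90AA1 had 5899, 6046 and 6194 CPM in WERI THZ1, against 2624, 2587 and 2503 CPM in WERI DMSO. It had 3898, 4801 and 3733 CPM in Y79 THZ1, against 1814, 1900 and 1763 CPM in Y79 DMSO. THZ1 libraries lay above all DMSO libraries of the same line. HSP90AA1, at chr14:102080738-102139699 on the minus strand, overlaps 197 exon bases of WDR20 on the other strand, and the library kit does not keep strand.

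HSP90AB1, the form of unstressed cells (chr6:44246166-44253888, plus strand), had 5031, 4809 and 5070 CPM in WERI THZ1, against 2355, 2428 and 2333 CPM in WERI DMSO. It had 4807, 6427 and 4782 CPM in Y79 THZ1, against 2276, 2227 and 2238 CPM in Y79 DMSO. The 6427 CPM belong to replicate 2, the library that stood apart. Log2 fold changes were 1.23 ± 0.0952 in WERI and 1.18 ± 0.0951 in Y79 for HSP90AA1, and 1.07 ± 0.105 in WERI and 1.25 ± 0.106 in Y79 for HSP90AB1. Without Y79 THZ1 replicate 2, the Y79 values were 1.03 for HSP90AA1 and 1.06 for HSP90AB1.

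Scaled to mitochondrial mRNA, the log2 fold change was -0.66 in WERI and -0.53 in Y79 for HSP90AA1, and -0.83 in WERI and -0.46 in Y79 for HSP90AB1. That scaling placed the median of all tested genes at -2.01 in WERI and -1.80 in Y79, against -0.11 and -0.09 with TMM. Relative to the median gene, with TMM, HSP90AA1 stood at 1.35 in WERI and 1.27 in Y79 and HSPA8 at -2.70 in WERI and -3.68 in Y79. HSPA8 and TTC4 were lower under every scaling tried, at -4.71 and -4.80 in WERI and -5.48 and -5.70 in Y79 when scaled to mitochondrial mRNA. By library size alone the HSP90 values stayed above 0, from 0.61 to 0.79 for HSP90AA1 and 0.62 to 0.67 for HSP90AB1.

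**Figure D2:**
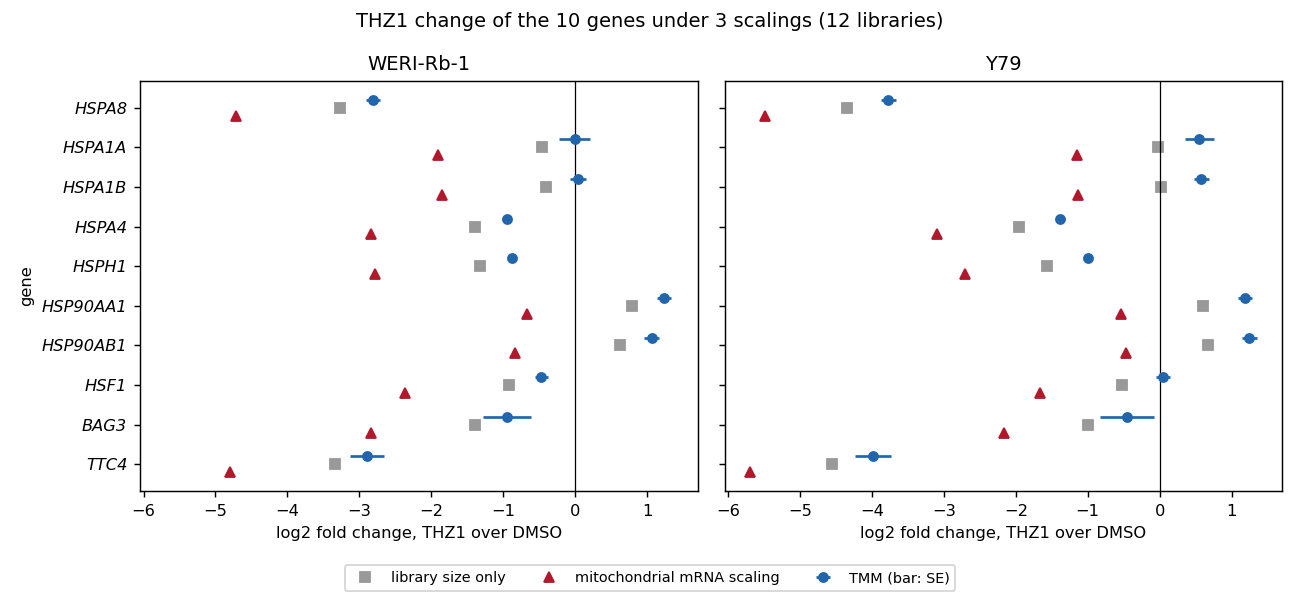
Log2 fold change of THZ1 over DMSO for each gene in WERI-Rb-1 (left) and Y79 (right), with TMM scaling (circles, bars are SE), by library size only (squares) and scaled to mitochondrial mRNA (triangles). HSPA8 and TTC4 lie far below 0 in all 3, while HSP90AA1 and HSP90AB1 lie above 0 with TMM and library size and below 0 when scaled to mitochondrial mRNA (-0.66 and -0.83 in WERI).

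HSF1, the activating transcription factor of the heat shock response, had 53.1, 49.3 and 46.3 CPM in WERI THZ1, against 66.1, 70.9 and 69.0 CPM in WERI DMSO. In Y79 THZ1 it had 51.3, 59.7 and 54.0 CPM, against 49.3, 49.5 and 61.2 CPM in Y79 DMSO. The WERI groups did not overlap and the Y79 groups did. Its log2 fold change was -0.47 ± 0.0942 in WERI and 0.04 ± 0.0944 in Y79 under TMM, where the Y79 value was -0.53 by library size alone and -1.66 scaled to mitochondrial mRNA. HSF1 overlaps 139 exon bases of DGAT1 on the opposite strand.

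BAG3 encodes an HSP70 exchange factor of selective autophagy and had the lowest CPM of the 10 genes in DMSO cultures. It had 1.33, 1.42 and 1.73 CPM in WERI THZ1, against 3.26, 2.87 and 2.48 CPM in WERI DMSO, with no overlap. In Y79 it had 5 to 19 counts in THZ1 libraries, against 25 to 36 counts in DMSO libraries, and the CPM of these groups overlapped. The log2 fold change was -0.94 ± 0.334 in WERI and -0.45 ± 0.374 in Y79.

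At an adjusted p under 0.05, 2 of the 10 genes were called higher and 6 lower in WERI THZ1, beside 27.7% of all tested genes called higher and 37.2% lower (64.8% in either direction). The libraries of the WERI groups did not overlap for 8 of the 10 genes, beside 75.9% of all tested genes. In Y79 THZ1, 4 were called higher and 4 lower, beside 29.9% of all tested genes called higher and 38.5% lower (68.3% in either direction). The Y79 groups did not overlap for 7 of the 10, beside 68.9% of all tested genes. Nothing is read from these counts, since the THZ1 comparisons were used to choose the genes. The split of all genes moved with the scaling. In WERI it was 4115 higher and 5523 lower with TMM, 2221 and 7961 by library size, and 111 and 13328 scaled to mitochondrial mRNA. In Y79 it was 4439 higher and 5721 lower with TMM, 2175 and 8334 by library size, and 283 and 12188 scaled to mitochondrial mRNA.

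Ratios between the genes within a library do not move with its scaling factor, but they do move with the gene length used. Those that include HSPA1A and HSPA1B also rest on how reads shared by these genes were counted, which is not known. By exon union HSPA8 is 4849 bases long, and its main coding transcript is 2463 bases long. By exon union HSPA8 made up 86.9% to 90.2% of the summed CPM per kilobase of HSPA8, HSPA1A and HSPA1B in WERI THZ1 and 98.0% to 98.2% in WERI DMSO. In Y79 it made up 43.3% to 47.4% in THZ1 and 94.3% to 94.7% in DMSO libraries. By the length of the main coding transcript, an alternative chosen after seeing the data, its share was 92.9% to 94.8% in WERI THZ1 and 98.9% to 99.1% in WERI DMSO, and 60.0% to 64.0% in Y79 THZ1 and 97.0% to 97.3% in Y79 DMSO. By either length the share was lowest in Y79 THZ1, while whether HSPA8 or the sum of HSPA1A and HSPA1B was higher there turned with the length.

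The ratio of the 2 summed HSP90 mRNAs to the 3 summed HSP70 mRNAs, per kilobase of exon union, was 65.4 ± 0.660 in WERI THZ1 and 4.73 ± 0.0721 in WERI DMSO, and 42.6 ± 2.62 in Y79 THZ1 and 2.77 ± 0.0262 in Y79 DMSO (SD, n = 3). By transcript length it was 45.7 ± 0.377 in WERI THZ1 and 3.11 ± 0.0531 in WERI DMSO, and 36.9 ± 1.83 in Y79 THZ1 and 1.81 ± 0.0145 in Y79 DMSO. The ratios of single genes that follow are by exon union, and another length multiplies each by the same factor in every library. The HSP90AA1 to HSP90AB1 ratio differed much less between treatments, at 0.691 ± 0.0242 in WERI THZ1 and 0.616 ± 0.0148 in WERI DMSO, and at 0.443 ± 0.0181 in Y79 THZ1 and 0.461 ± 0.0201 in Y79 DMSO. HSPA8 to HSPA4 was 1.58 ± 0.0738 in WERI THZ1 and 5.76 ± 0.181 in WERI DMSO, and 1.30 ± 0.146 in Y79 THZ1 and 6.80 ± 0.289 in Y79 DMSO. Between Y79 and WERI DMSO libraries each of 7 such ratios separated without overlap, with a two-sided exact permutation p of 0.1, the smallest that 3 against 3 libraries allow, and 0.1 after adjustment over the 7.

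**Figure D3:**
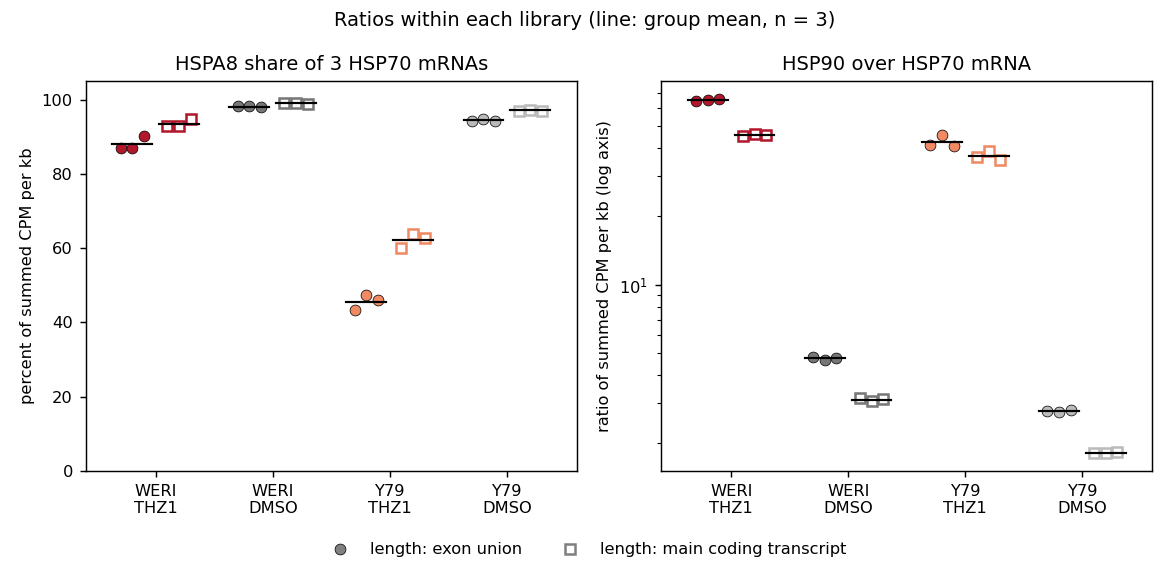
Left, HSPA8 as percent of the summed CPM per kilobase of HSPA8, HSPA1A and HSPA1B, and right (log axis), summed HSP90AA1 and HSP90AB1 over the summed 3 HSP70 mRNAs, per kilobase of exon union (filled circles) or of the main coding transcript (open squares), with points for libraries and lines for group means (n = 3). In Y79 THZ1 libraries HSPA8 holds 43.3% to 47.4% by exon union and 60.0% to 64.0% by transcript, against at least 86.9% in the other groups by either length, and the HSP90 ratio is at least 35.3 in every THZ1 library and at most 4.80 in every DMSO library.

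The difference between the lines in their THZ1 change was not itself the ground for choosing the genes and was tested with edgeR. For HSPA8 and TTC4 it is built from the same THZ1 values that chose them, so their adjusted p is not independent of that choice. The THZ1 change of HSPA8 was more negative in Y79 than in WERI, with a difference of log2 fold changes of -0.96 ± 0.126 (adjusted p = 0.000242), and every left-out library and every scaling kept that call. HSPA4 differed in the same direction, by -0.43 ± 0.0897 (adjusted p = 0.00454), a call lost when libraries were scaled to mitochondrial mRNA (-0.25, adjusted p = 0.273). TTC4 had a difference of -1.09 ± 0.338 (adjusted p = 0.0381), a call also lost when scaled to mitochondrial mRNA (-0.89, adjusted p = 0.0604).

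Under TMM the TTC4 call held only with all libraries, without WERI THZ1 replicate 2 or without Y79 THZ1 replicate 1. Leaving out any other of the 12 gave differences of -1.13 to -0.77 with adjusted p of 0.0538 to 0.102, -0.77 being that without Y79 THZ1 replicate 3. With MROH7-TTC4 added the difference was -0.89 (adjusted p = 0.0424).

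HSPA1B and HSF1 differed the other way, with more positive changes in Y79. The HSPA1B difference was 0.55 ± 0.153 (adjusted p = 0.0247), and that of HSPA1A and HSPA1B summed was 0.55 (adjusted p = 0.0172). The HSPA1B call was lost by library size alone (adjusted p = 0.104) and without WERI DMSO replicate 2 or 3, WERI THZ1 replicate 1 or 3, or Y79 DMSO replicate 1 or 3, at differences of 0.45 to 0.54 (adjusted p = 0.0542 to 0.0757). The HSF1 difference was 0.51 ± 0.133 (adjusted p = 0.0165), and it stood at 0.46 (adjusted p = 0.0503 to 0.0510) without WERI THZ1 replicate 3, Y79 DMSO replicate 1 or Y79 DMSO replicate 2.

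The other 5 genes did not pass in this comparison. Differences were -0.11 ± 0.0809 for HSPH1 (adjusted p = 0.367), -0.05 ± 0.133 for HSP90AA1 (adjusted p = 0.857) and 0.18 ± 0.147 for HSP90AB1 (adjusted p = 0.445). HSPA1A had 0.56 ± 0.296 (adjusted p = 0.220) and BAG3 0.49 ± 0.504 (adjusted p = 0.567), with SE too wide to tell a difference of this size from none. Without Y79 THZ1 replicate 2 the HSP90AA1 difference was -0.17 (adjusted p = 0.0487). Of the 10 genes, 2 were thus called with a more positive and 3 with a more negative change in Y79, beside 8.74% and 13.2% of all tested genes (22.0% in either direction).

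Among the chosen genes, the lines differed most without THZ1 in HSPA1A, HSPA1B and BAG3. Y79 DMSO had 37.1 ± 1.26 CPM of HSPA1B and WERI DMSO 7.97 ± 0.784 CPM (SD, n = 3 each), a log2 fold change of 2.22 ± 0.111 (edgeR adjusted p = 8.24e-10). HSPA1A was higher in Y79 by 1.92 ± 0.212 (adjusted p = 2.74e-06), and the sum of both by 2.11 (adjusted p = 7.29e-10). BAG3 went the other way, with 0.763 ± 0.152 CPM in Y79 DMSO and 2.87 ± 0.391 CPM in WERI DMSO (-1.91 ± 0.344, adjusted p = 0.000275). HSPA6, another inducible HSP70 gene but outside the chosen set, was also lower in Y79. It had 2.75 ± 0.429 CPM in Y79 DMSO and 13.3 ± 0.508 CPM in WERI DMSO (-2.27 ± 0.170, edgeR adjusted p = 5.25e-08). The inducible HSP70 genes thus did not all differ between the lines in the same direction.

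Smaller differences between the DMSO groups passed for HSPH1, HSPA8 and HSPA4, all higher in Y79. HSPH1 had 0.60 ± 0.0569 (adjusted p = 5.84e-07) and HSPA8 0.50 ± 0.0887 (adjusted p = 0.000255), and the HSPA8 call was lost when libraries were scaled to mitochondrial mRNA (0.22, adjusted p = 0.0969). HSPA4 had 0.26 ± 0.063 (adjusted p = 0.00276), which was lost by library size alone (0.10, adjusted p = 0.231) and turned to -0.01 scaled to mitochondrial mRNA. TTC4 was higher in Y79 by 0.52 ± 0.207 (adjusted p = 0.0425), a call lost by library size alone (0.36, adjusted p = 0.142), scaled to mitochondrial mRNA (0.25, adjusted p = 0.277) and without any 1 of the 6 DMSO libraries, WERI THZ1 replicate 3 or Y79 THZ1 replicate 2 (0.49 to 0.56, adjusted p = 0.0504 to 0.117).

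HSP90AA1 and HSF1 were lower in Y79 DMSO than in WERI DMSO, by -0.49 ± 0.094 (adjusted p = 0.000428) and -0.36 ± 0.0936 (adjusted p = 0.00396). HSP90AB1 had -0.08 ± 0.104 and did not pass (adjusted p = 0.538), although it did by library size alone (-0.24, adjusted p = 0.00591), scaled to mitochondrial mRNA (-0.36, adjusted p = 0.0151) and without Y79 THZ1 replicate 2 (-0.10, adjusted p = 0.0267). In all, 6 of the 10 genes were called higher and 3 lower in Y79 DMSO, beside 32.3% and 32.6% of all tested genes (64.9% in either direction). The DMSO libraries of the lines did not overlap for any of the 10, as for 77.9% of all tested genes.

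**Figure D4:**
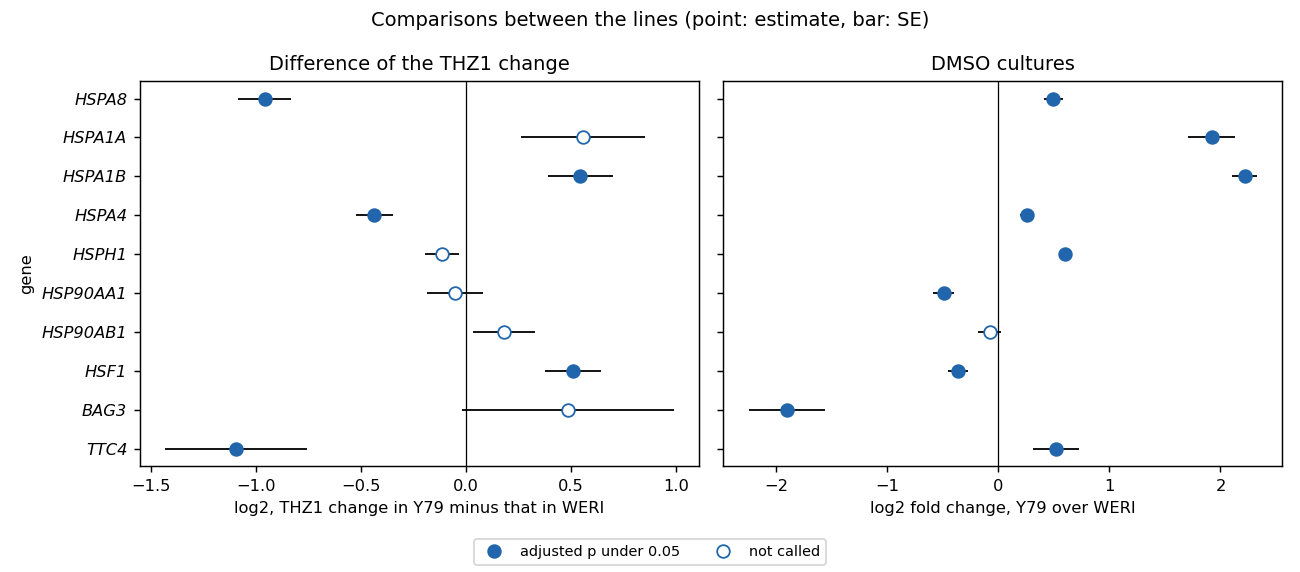
Left, the THZ1 change in Y79 minus that in WERI, and right, Y79 over WERI in DMSO cultures, both on the log2 scale with TMM scaling (points are estimates, bars SE, filled points have an edgeR adjusted p under 0.05). HSPA8, HSPA4 and TTC4 lie below 0 on the left (-0.96, -0.43 and -1.09), and HSPA1A and HSPA1B lie near 2 on the right. The HSPA8, HSPA4 and TTC4 values on the right lose their call under other scalings, where that of HSPA4 is -0.01 with mitochondrial mRNA. On the left, those of HSPA4 and TTC4 lose it when scaled to mitochondrial mRNA.

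Across the 12 libraries, log2 CPM of HSPA8 had a Pearson r of 0.996 with HSPA4, 0.982 with TTC4, 0.864 with HSPH1, -0.891 with HSP90AA1, -0.972 with HSP90AB1 and -0.119 with HSPA1A. The libraries share treatment, line and scaling, so these values describe the pattern of group means. They were computed with TMM only. Scaled to mitochondrial mRNA, the HSP90 genes were lower after THZ1, as HSPA8 was, so the negative values rest on the scaling. Among 9633 genes whose log2 CPM averaged 3 or more, the pattern most like that of HSPA8 was that of IST1 (r = 0.998), followed by SMUG1, PPP1R8, HS6ST1 and TSG101 (r = 0.997 for the last). IST1 had a smaller difference than HSPA8, with log2 fold changes of -1.26 ± 0.0624 in WERI and -1.66 ± 0.0635 in Y79. NIF3L1 was most like TTC4 (r = 0.993), with -2.70 ± 0.161 in WERI and -3.47 ± 0.168 in Y79, and ST6GAL1, NGDN, MRPL20 and UBE2G1 came next (each r = 0.991).

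Other chaperone genes were read from 6 lists that hold 64 genes in all, of which 62 were tested and 9 stand in more than 1 list. HSPA2 and HSPA1L, with at most 15 and 8 counts in a library, did not pass the filter. Calls are by edgeR, adjusted over every tested feature, and the list counts stand beside the shares of all genes called given above. Scaled to mitochondrial mRNA, no gene of these lists was called higher in WERI. In Y79 1 was, from the list of heat shock factors and regulators. Each gene named below with a rise under TMM was below 0 with that scaling, so these rises are relative to TMM scaling.

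The HSP70 family outside the 10 had 2 genes higher and 5 lower of 9 tested in WERI, and 4 higher and 5 lower in Y79, with a median log2 fold change of -0.50 and -1.06 against -0.11 and -0.09 for all genes. HSPA5 (BiP), the HSP70 of the endoplasmic reticulum, had 457 ± 22.4 CPM in WERI THZ1 and 491 ± 12.1 CPM in WERI DMSO (-0.10, adjusted p = 0.331) and fell in Y79, with 180 ± 25.9 CPM in THZ1 and 374 ± 6.55 CPM in DMSO (-1.06 ± 0.0898, adjusted p = 1.45e-07). Its WERI value was called lower by library size (-0.55, adjusted p = 3.48e-06), scaled to mitochondrial mRNA (-2.002) and without Y79 THZ1 replicate 2 (-0.13, adjusted p = 0.0176). HSPA9, the mitochondrial HSP70, rose under TMM by 0.67 ± 0.0854 in WERI and 0.65 ± 0.0854 in Y79 (adjusted p = 1.01e-05 and 1.25e-05), where it had -1.23 and -1.07 scaled to mitochondrial mRNA and 0.07 in Y79 by library size. HYOU1, an HSP110-type chaperone of the endoplasmic reticulum, rose under TMM by 1.24 ± 0.0615 in WERI and 1.08 ± 0.0614 in Y79, where it had -0.66 and -0.63 scaled to mitochondrial mRNA.

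Both HSP90 genes outside the cytosol rose under TMM in both lines. HSP90B1 (GRP94, endoplasmic reticulum) had 815 ± 18.9 CPM in WERI THZ1 and 348 ± 6.37 CPM in WERI DMSO (1.23 ± 0.112, adjusted p = 3.72e-07), and 789 ± 156 CPM in Y79 THZ1 and 410 ± 27.9 CPM in Y79 DMSO (0.94 ± 0.111, adjusted p = 3.95e-06). TRAP1, the mitochondrial HSP90, had 0.81 ± 0.104 in WERI and 0.90 ± 0.104 in Y79. Scaled to mitochondrial mRNA, HSP90B1 had -0.67 and -0.77 and TRAP1 -1.09 and -0.81 in WERI and Y79.

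Of 25 HSP90 co-chaperones, 5 were called higher and 13 lower in WERI, and 5 higher and 14 lower in Y79, with medians of -0.28 and -0.51. STIP1 (HOP), which holds HSP70 and HSP90 together, fell by 0.85 on the log2 scale in WERI (SE 0.101, adjusted p = 5.71e-06) and by 1.10 in Y79 (SE 0.102, adjusted p = 3.58e-07). PTGES3 (p23), which binds the closed HSP90 dimer, fell in Y79 (-0.70 ± 0.0879, adjusted p = 7.72e-06) and had 0.19 ± 0.0877 in WERI (adjusted p = 0.0818). That WERI value was called higher with RLE factors (0.27, adjusted p = 0.0216) and without Y79 THZ1 replicate 2 (0.16, adjusted p = 0.0129), and lower by library size (-0.26, adjusted p = 0.00450) and scaled to mitochondrial mRNA (-1.71). FKBP8, a membrane-bound immunophilin, rose under TMM by 1.39 ± 0.162 in WERI and 1.63 ± 0.163 in Y79, where it had -0.51 and -0.08 scaled to mitochondrial mRNA. In the difference between the lines, 1 co-chaperone was more positive and 7 more negative in Y79. These counts were 0 and 10 by library size, and 3 and 3 scaled to mitochondrial mRNA. Without Y79 THZ1 replicate 2 they were 1 and 13. Leaving out that library also moved the calls among all tested genes, to 2161 more positive and 3029 more negative, from 1299 and 1965.

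Of 10 exchange factors and regulators of HSP70, 4 were called higher and 4 lower in WERI, and 4 higher and 5 lower in Y79. BAG6, ST13 (HIP) and BAG1, the 3 with the highest CPM, rose in both lines under TMM, by 0.87 ± 0.0642, 1.203 ± 0.0812 and 1.70 ± 0.174 in WERI and by 1.18 ± 0.0646, 1.37 ± 0.0815 and 0.83 ± 0.173 in Y79, and each was below 0 scaled to mitochondrial mRNA. By library size the Y79 call of BAG1 was lost (0.24, adjusted p = 0.136). Medians over the list were 0.09 in WERI and -0.18 in Y79.

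Among 5 heat shock factors and regulators, 3 rose and 2 fell in both lines under TMM. HSBP1, a binding protein of HSF1, had 232 ± 18.0 CPM in WERI THZ1 and 68.0 ± 0.324 CPM in WERI DMSO (1.77 ± 0.0891, adjusted p = 1.84e-09), and 456 ± 54.4 CPM in Y79 THZ1 and 143 ± 7.30 CPM in Y79 DMSO (1.68 ± 0.0884, adjusted p = 1.50e-09), where its values scaled to mitochondrial mRNA were -0.13 and -0.04. SIRT1, a deacetylase of HSF1, fell to 29.8 ± 1.70 CPM in WERI THZ1, against 57.0 ± 1.95 CPM in WERI DMSO, and to 41.6 ± 2.74 CPM in Y79 THZ1, against 83.6 ± 5.74 CPM in Y79 DMSO (log2 fold changes -0.94 and -1.01). FBXW7, a ubiquitin ligase subunit that targets HSF1, rose under TMM by 0.68 ± 0.0921 in WERI and 1.18 ± 0.0929 in Y79, where it had -1.21 and -0.54 scaled to mitochondrial mRNA, and the WERI call was lost by library size (0.24, adjusted p = 0.0991).

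Of 21 genes known as targets of HSF1 in heat-shocked cells, 3 were called higher and 13 lower in WERI, and 4 higher and 11 lower in Y79. Their median log2 fold change was -0.38 in WERI and -0.78 in Y79, against -0.11 and -0.09 for all genes. HSPD1, the mitochondrial HSP60, rose under TMM by 0.41 ± 0.0923 in WERI and 0.49 ± 0.0924 in Y79 but had -0.03 and -0.09 by library size and -1.48 and -1.22 scaled to mitochondrial mRNA.

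**Figure D5:**
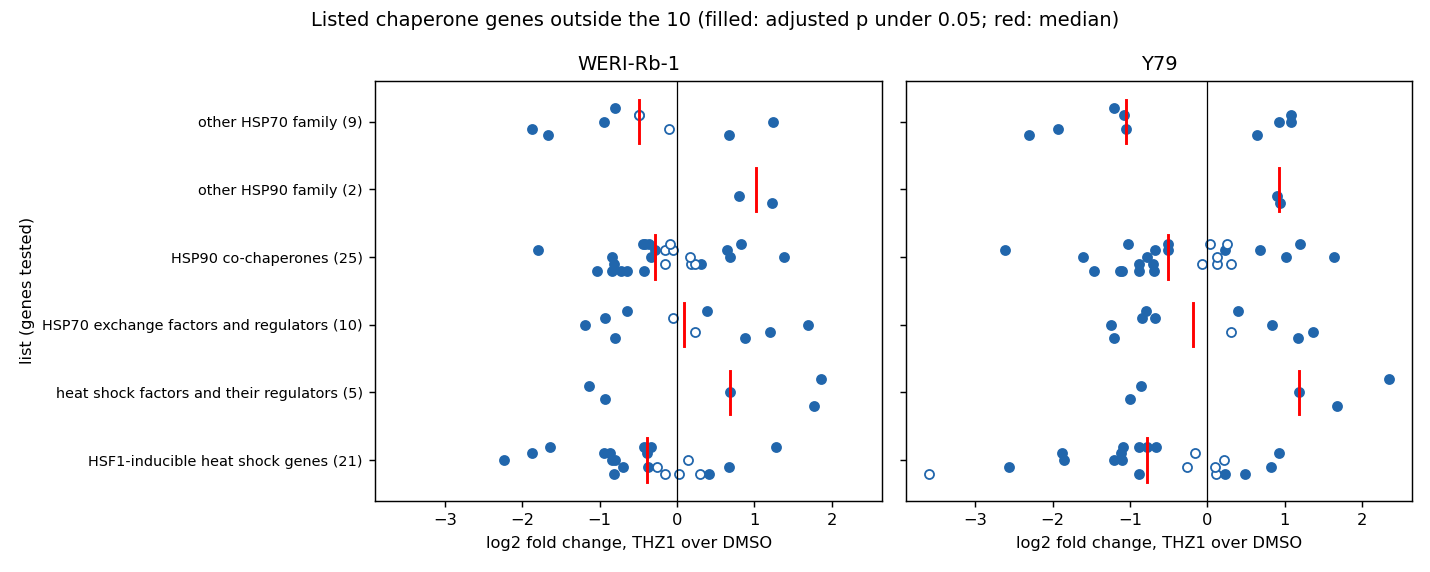
Log2 fold change of THZ1 over DMSO (TMM scaling) for the tested genes of each list in WERI-Rb-1 (left) and Y79 (right). Points are genes, filled where the edgeR adjusted p is under 0.05, and red bars are list medians. The median of the 21 HSF1 targets lies at -0.38 in WERI and -0.78 in Y79, and the 2 other HSP90 genes lie near 1 in both lines but below 0 when scaled to mitochondrial mRNA.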

How the data were processed

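Whole-number counts per gene were deposited by the authors for 12 libraries, with no normalization that the values show. Per the labels' protocols, NEBNext Ultra RNA kits were used, and these leave the transcript's strand unknown. Per the submitters' processing notes, Cufflinks and GRCh38 were used; the sources used here give no Cufflinks version, aligner or counting rule. Total counts were 29677575 to 37433574 per library, and a count of 0 allows up to 3 counts (counting error only).

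The counts were fitted in R 4.3.3 with edgeR 4.0.16 (filterByExpr, TMM, glmQLFit with robust spread, glmQLFTest), 1 mean per group over all 12 libraries, leaving 14865 Ensembl genes and 3979 unannotated loci. Benjamini-Hochberg adjustment ran over all tested features, the threshold was 0.05, tests were two-sided, and SE is the absolute log2 fold change over the square root of F. The contrasts were THZ1 over DMSO in each line, the difference of these changes (Y79 minus WERI), and Y79 over WERI in DMSO. Nothing in the labels says that cultures were grown apart beyond calling them biological samples, so p-values measure the spread between these cultures. The script was tested on simulated data with 200 changed genes.

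Values per kilobase divide CPM by the exon union of GENCODE v29 (GRCh38). Shared sequence was counted as 100-base windows of the main transcript that recur in another gene's transcripts. Log2 CPM for correlations used a prior count of 2. Tables and figures were made with Python 3.11.15 (matplotlib 3.10.9, scipy 1.17.1, numpy 2.4.6, pandas 2.3.3). Alternatives were RLE factors, library size only, scaling to the summed counts of the 13 mitochondrial mRNAs, no filter, DESeq2 1.42.0, a replicate block, each library left out, HSPA1A with HSPA1B summed and, added after seeing the data, TTC4 with MROH7-TTC4 summed, ratios by transcript length and the list counts under other scalings and without Y79 THZ1 replicate 2.

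Named are the 10 genes, the 3 tested genes of each list with the highest mean CPM, the 5 genes most correlated with HSPA8 and TTC4, and their nearest tested or overlapping annotated neighbours. The values of 1 gene under this rule are not reported here. The genes and lists were chosen with earlier results of these data known.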

Additional observations from a re-analysis of the deposited data

Results flagged for a closer look

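The THZ1 change of 5 of the 10 genes differed between the lines by the edgeR test of that difference (Y79 minus WERI, log2). It was -0.96 for HSPA8, -0.43 for HSPA4 and -1.09 for TTC4, which were lower after THZ1 by a larger factor in Y79. It was 0.55 for HSPA1B and 0.51 for HSF1, whose changes were more positive in Y79. These are 5 of 10 genes, beside 22.0% of all tested genes called in this comparison. For HSPA8 and TTC4 the difference is built from the same THZ1 values that chose them, so their calls are not independent of that choice. Only the HSPA8 call held under every alternative, which does not remove that limit. Scaled to mitochondrial mRNA the calls of HSPA4 and TTC4 were lost, and by library size that of HSPA1B. With each of 12 libraries left out in turn, the call was lost 10 times for TTC4, 6 times for HSPA1B and 3 times for HSF1.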

How the results depend on the processing

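Numbers of called genes kept within 1.5 times of those reported under every alternative, except that the difference between the lines went to 5190 without Y79 THZ1 replicate 2. Leaving out each library gave 8869 to 10472 genes in WERI, 9497 to 10389 in Y79, 2326 to 5190 for the difference and 8739 to 10727 for the lines in DMSO. Signs turned in values near 0 or under scalings that move all genes; beyond those constructions the cause was not tested. For HSPA1A in WERI they were 0.079 with RLE factors, 0.080 with DESeq2 and -0.25 to 0.15 with a library left out, and in Y79 they were -0.026 by library size and -1.15 with mitochondrial scaling. For HSPA1B in WERI they were -0.41 by library size, -1.85 with mitochondrial scaling and -0.12 to 0.13 with a library left out, and in Y79 -1.13 with mitochondrial scaling. Under mitochondrial scaling HSP90AA1 had -0.66 in WERI and -0.53 in Y79, and HSP90AB1 -0.83 and -0.46. HSF1 in Y79 had -0.53 by library size, -1.66 with mitochondrial scaling and -0.050 to 0.15 with a library left out. In the difference between the lines HSPH1 had 0.071 and HSP90AA1 0.13 with mitochondrial scaling, and HSP90AA1 -0.17 to 0.039 with a library left out. Between the lines in DMSO, HSPA4 had -0.015 with mitochondrial scaling. The HSPA8 difference between the lines ranged from -1.08 to -0.77 over all alternatives (highest adjusted p 0.00392).

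Same-numbered libraries did not deviate together (r of -0.0438 to 0.00459 in 6 pairs, and 0 of 6 THZ1 libraries matched their own number best). The values thus showed no pairing by replicate number. They cannot tell whether same-numbered cultures were prepared together, which the labels do not say. With the replicate number as a block, 9221, 9741, 2304 and 9384 genes were called in WERI, in Y79, for the difference and between the lines, against 9638, 10160, 3264 and 9646 without it. Among the tested calls of the 10 genes the block ended those of the difference for TTC4 (adjusted p = 0.0572) and HSPA1B (0.0610).

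BAG3 and TTC4 in THZ1 libraries rest on 5 to 95 counts, which limits the precision of their values. The labels name no added RNA standard, so a change of total mRNA per cell cannot be told apart from the scaling.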

Other observations

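Within the list of HSF1 targets, 4 genes outside the naming rule were singled out after their values were seen. DNAJB1, an HSP40 partner of HSP70 that HSF1 induces on heat shock, fell to 32.9 ± 0.970 CPM in WERI THZ1, against 121 ± 2.57 CPM in WERI DMSO, and to 27.3 ± 1.65 CPM in Y79 THZ1, against 100 ± 3.85 CPM in Y79 DMSO (log2 fold change -1.88 in both, SE 0.0667 and 0.0675, edgeR adjusted p = 1.41e-10 and 6.73e-11). DNAJA1, another HSP40, fell further in Y79, with -2.57 ± 0.0866 in Y79 and -0.70 ± 0.081 in WERI (difference -1.87 ± 0.116, adjusted p = 2.12e-06).

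UBB, a polyubiquitin gene, rose in WERI under TMM (1.28 ± 0.125) and fell in Y79 (-0.67 ± 0.12), a difference of -1.95 ± 0.173 (adjusted p = 2.04e-05). HSPA6, a strictly inducible HSP70, did the reverse under TMM, with 0.92 ± 0.171 in Y79 and -0.94 ± 0.162 in WERI (difference 1.86 ± 0.236, adjusted p = 0.000187). It had 5.23 ± 1.05 CPM in Y79 THZ1 and 2.75 ± 0.429 CPM in Y79 DMSO, and 6.93 ± 0.524 CPM in WERI THZ1 and 13.3 ± 0.508 CPM in WERI DMSO. Scaled to mitochondrial mRNA, neither gene was called higher in either line, and by library size the rise of HSPA6 in Y79 was not called.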
